A study of Mus musculus with 30 samples.

Results

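B cells and T cells are the lymphocytes that recognise antigen through clonally distributed receptors. Native B cells from mouse blood, sorted as B220+ and given 3 libraries, were compared with native T cells from mouse blood, given 5 libraries. The T cells were 2 libraries sorted as Cd3+Cd4+ and 3 sorted as Cd3+Cd8+. These 8 libraries were taken by their titles from the 30 of the series, which studied blood-forming cells made from adult endothelium. All 8 carry the label of a control, a wild type genotype, blood as the tissue and a fresh isolation without culture, and all were purified by flow cytometry. The age, sex and strain of the donor animals are not given in the sources used here. Messenger RNA was selected by its poly-A tail and read as paired ends without strand information. Levels are the FPKM values the authors deposited, fragments scaled by transcript length and by the number of mapped fragments, so levels of different genes can be compared per length.

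The B cell receptor is a membrane immunoglobulin that signals through the chains Cd79a and Cd79b, whose tails recruit the kinase Syk, the adaptor Blnk, the kinase Btk and the phospholipase Plcg2. The T cell receptor signals through the Cd3 chains and Cd247, with the kinases Lck and Zap70, the adaptors Lat and Lcp2 and the phospholipase Plcg1 in matching roles. Both routes meet at Bcl10 and Malt1 and at the Nfat and NF-kB factors. B cells present antigen on MHC class II and receive help from T cells, and mouse T cells carry little or no class II of their own. Immunoglobulin and T cell receptor segments are not analysed here.

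The sorted identities stood out in each library. The pan-T marker Cd3e was between 234 and 285 FPKM in the 5 T libraries and between 0.281 and 0.393 in the 3 B libraries. Cd4, the co-receptor for class II, was at 364 and 352 FPKM in the CD4 libraries and at most 0.272 in the CD8 libraries. Cd8a, the co-receptor for class I, was at 395, 363 and 373 FPKM in the CD8 libraries and at 2.87 and 1.57 in the CD4 libraries. Pearson's r of log2(FPKM + 1) over the genes tested was 0.98 to 0.99 between libraries of the same sort and 0.94 to 0.97 between CD4 and CD8 libraries. It was 0.85 to 0.86 between B and CD4 libraries and 0.88 to 0.89 between B and CD8 libraries. The CD8 libraries held more B cell transcripts, as given below, and the part of these in r was not tested. By the test below more genes differed between B and CD8 cells (5282) than between B and CD4 cells (4802).

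The B and T libraries also differed in the sex of their donors, as far as sex-linked transcripts show. Xist, the RNA that coats the inactive X chromosome of female cells, was at 63.9, 77.2 and 87.0 FPKM in the B libraries and at most 0.0899 in the T libraries. Ddx3y, a Y-linked RNA helicase, lay between 32.7 and 40.3 FPKM in the 5 T libraries and was at most 0.0695 in the B libraries. The other Y-linked genes Eif2s3y, Kdm5d and Uty showed the same split, with no overlap. For any single gene, an effect of donor sex cannot be told apart from the difference between B and T cells in these libraries. Of the 420 genes tested on the X chromosome 36% differed between B and T cells by the test described next. The share was 41.4% for 12613 autosomal genes, and 4 of 5 genes tested on the Y chromosome differed. Cell type and donor sex are joined in these shares, so they do not measure an effect of sex.

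Transcripts of B cells were present in the CD8 libraries at low level. The 5 B markers, among them Cd79a, Cd79b, Ms4a1 and Pax5, stood at a median of 8.0%, 5.12% and 3.28% of their B cell mean in CD8 replicates 1, 2 and 3. In the CD4 libraries the median was 0.539% and 0.509%. The reverse was small, with the T markers Cd3d, Cd3e, Cd3g, Cd5 and Bcl11b at a median of 0.117% to 0.294% of their T cell mean in the B libraries. Over the 55 genes at 50 FPKM or more in B cells and at most 1% of that in CD4 cells, the median was 8.73%, 6.66% and 3.59% in the 3 CD8 libraries, and 48 of the 55 stayed within 0.5 to 2 times that median in every CD8 library. Among the genes farthest above it in all 3 was Spi1, the factor PU.1, also expressed by myeloid cells, which reached 15.1%, 34.0% and 7.97% of its B cell level. Farthest below it was Xist, at 0.057%, 0.068% and 0.044% of its B cell level. The source of the B transcripts in the CD8 libraries was not tested.

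**Figure D1:**
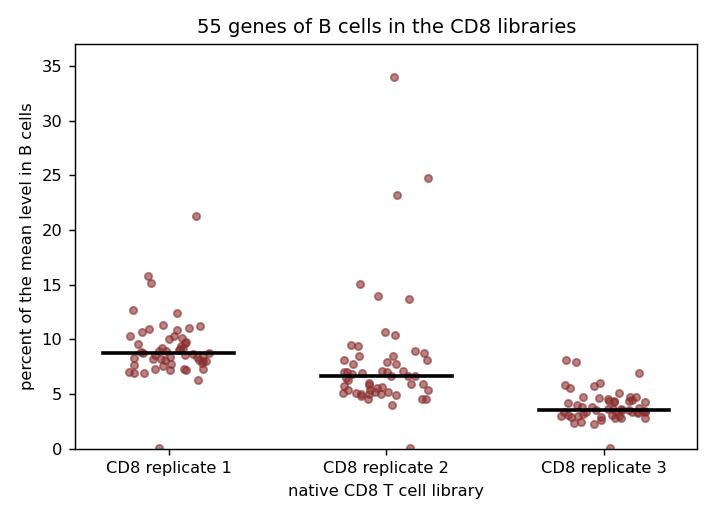
Level of 55 genes of B cells in each native CD8 library, as a percent of the mean level in the 3 B libraries. Each point is a gene and the black bar is the median, at 8.73%, 6.66% and 3.59% in replicates 1, 2 and 3. The points cluster around a level that differs from library to library.

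Markers of other blood cells were not even across the libraries. The summed level of 12 myeloid markers was 709 to 1624 FPKM in the CD8 libraries, 114 to 132 in the CD4 libraries and 240 to 302 in the B libraries. Lyz2, the macrophage lysozyme, was at 121, 638 and 64.3 FPKM in the CD8 libraries and at most 4.60 elsewhere. The summed level of 9 natural killer markers was 132 to 428 FPKM in CD8, 19.8 to 29.1 in CD4 and 8.25 to 13.8 in B libraries, and Ncr1, a receptor of natural killer cells, was at 20.8, 24.8 and 1.5 in CD8, listed at 0 in CD4 replicate 1, at 0.340 in CD4 replicate 2 and at most 1.82 in B libraries. Erythroid markers summed to 890 FPKM in B replicate 3 and to 32.9 to 245 in the other 7 libraries. The 8 plasmacytoid dendritic cell markers summed to 7.99 to 9.41 FPKM in B and to 15.1 to 35.2 in T libraries, and the 8 platelet markers to 47.9 and 48.7 in CD4 and to 8.61 to 13.4 in the others. The gene model Gm25500 held 24.0% of the summed FPKM of CD4 replicate 1 and at most 3.65% in the other 7 libraries.

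B and T cells differed over a large part of the transcriptome. Of 13578 genes tested with limma on log2(FPKM + 1), 5599 (41.2%) differed at an adjusted p under 0.05, 2501 (18.4%) higher in B and 3098 (22.8%) higher in T cells, where T is the mean of the CD4 and CD8 group means. By at least 1 on the log2 scale 900 were higher in B and 1316 in T cells, and by at least 4 the counts were 91 and 113. The median difference over all genes tested was -0.03. Counts of called list members below are to be read beside the 18.4% and 22.8% of all genes tested. The lists were chosen with earlier results of these data known, so their counts and medians follow in part from the choice. For 5370 genes (39.5%) the 3 B libraries did not overlap the 5 T libraries. Measured against each T cell type apart, 4802 genes (35.4%) differed from CD4 and 5282 (38.9%) from CD8 cells, and 3582 (26.4%) differed from both in the same direction. All differences below are on the log2(FPKM + 1) scale, which understates the change of genes with low levels, and in bulk RNA fewer cells of a type and less RNA per cell cannot be told apart. The replicates are separate libraries that no label ties to separate animals, so the p-values measure the spread between libraries. That spread was fitted over all native cell types, stem cell (LKS-SLAM) and myeloid libraries included, and not over B and T libraries alone. Intervals can therefore be wider than the B and T values shown would give, and not passing does not show equal levels.

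The genes set farthest apart in the direction of B cells were surface molecules, receptor chains and class II genes. Ly6d, a small surface protein of the B lineage, led with 1641, 1160 and 1337 FPKM in B, 3.90 and 5.35 in CD4 and 86.8, 55.5 and 31.1 in CD8 libraries. The groups did not overlap, and the difference was 6.30 ± 0.42 (SE; adjusted p = 1.09e-07). Ms4a1, which encodes CD20, stood at 488, 704 and 738 FPKM in B, 1.35 and 3.09 in CD4 and 53.9, 33.0 and 21.5 in CD8 libraries, a difference of 5.93 ± 0.59 (adjusted p = 4.61e-06). Siglecg, an inhibitory receptor for sialic acid, differed by 5.87 ± 0.28, and Vpreb3, a chaperone-like relative of the surrogate light chain, by 5.80 ± 0.49. Fcmr, the receptor for the Fc part of IgM, and Fcrla, an intracellular Fc receptor-like protein, differed by 5.67 ± 0.61 and 5.62 ± 0.44. The rest of the first 15 included Cd79a, Cd79b, Syk, H2-Eb1, H2-Aa, H2-DMb2, Cd74 and Xist, the last of them the sex-linked gene given above.

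The T cell direction was led by receptor chains, early factors and adaptors. Cd3g was at 0.429, 0.493 and 0.105 FPKM in B, 552 and 525 in CD4 and 420, 439 and 454 in CD8 libraries. Its B and T libraries were far apart, with a difference of -8.51 ± 0.36 (adjusted p = 2.47e-09). Thy1, a glycolipid-anchored surface protein long used to mark mouse T cells, was at 0.793 to 0.891 FPKM in B and 573 to 703 in T libraries, a difference of -8.40 ± 0.27. Tcf7, the factor TCF-1, was at 1.10, 2.06 and 1.58 FPKM in B and 610 to 906 in T libraries, and differed by -8.26 ± 0.24. Il7r, the receptor chain for the survival cytokine IL-7, was at 0.117, 0.690 and 0.723 FPKM in B and 311 to 396 in T libraries, a difference of -7.88 ± 0.35. Lat, Ms4a4b, Cd3e, Cd3d, Cd247, Cd6 and Cd5 followed between -6.74 and -7.65. Also among the 15 were Als2cl at -7.14, Nsg2, a neuronal vesicle protein, at -7.02 and Igfbp4, a binding protein of insulin-like growth factors, at -6.97. Igfbp4 was also at 131 FPKM in native LKS-SLAM stem cells, where the other 14 genes of this direction were at 63.4 or less.

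The receptor complex and its co-receptors were higher in B cells for all 12 members of the list, with a median difference of 5.48 against -0.03 over all genes tested. Cd79a was at 2455, 2007 and 2055 FPKM in B, 13.2 and 13.6 in CD4 and 178, 117 and 69.7 in CD8 libraries, and the values did not overlap. Its difference was 7.23 from CD4 and 4.24 from CD8 cells, 5.74 ± 0.43 against both (adjusted p = 3.71e-07). Cd79b differed by 5.75 ± 0.31. Cd22, an inhibitory co-receptor, was at 425, 469 and 432 FPKM in B cells and differed by 5.33 ± 0.32. Cd81, a tetraspanin, was the member with the highest level in CD4 cells, at 26.6 and 21.1 FPKM against 118, 107 and 118 in B cells. In CD8 cells it was at 9.60, 6.77 and 3.23, so that both T cell types lay below B cells and CD4 above CD8 libraries.

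Of the 14 signalling genes typical of the B cell receptor 13 were higher in B cells, with a median of 4.5. Syk was at 392, 392 and 425 FPKM in B, 1.97 and 2.07 in CD4 and 29.1, 22.8 and 11.6 in CD8 libraries. No library of T cells came near the B level, and the difference was 5.67 ± 0.22 (adjusted p = 1.08e-09). Blk, a Src family kinase, differed by 5.37 ± 0.35, the adaptor Blnk by 5.20 ± 0.40, the scaffold Bank1 by 4.99 ± 0.35, the kinase Btk by 4.80 ± 0.17 and Lyn, the main Src family kinase of B cells, by 4.67 ± 0.24. The exception was Vav3, a guanine nucleotide exchange factor, at 3.54 to 3.70 FPKM in B and 2.36 to 4.55 in T libraries, with a difference of -0.01 (95% interval -0.36 to 0.34; adjusted p = 0.977).

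T cell receptor chains and co-receptors were higher in T cells for 13 of 14 members, with a median of -6.20. Cd247, the zeta chain, was at 0.475, 0.757 and 0.497 FPKM in B, 360 and 335 in CD4 and 172, 186 and 217 in CD8 libraries, a difference of -7.36 ± 0.20 (adjusted p = 9.03e-11). The CD4 libraries were the higher of both T cell types. Cd6 and Cd5, scavenger-type receptors that damp the signal, differed by -7.27 ± 0.33 and -6.74 ± 0.24. Pdcd1, the inhibitory receptor PD-1, was listed at 0 in all 3 B libraries and was at 8.04 and 6.34 FPKM in CD4 and 1.70, 1.89 and 2.48 in CD8 libraries. Cd2, an adhesion receptor, did not pass, at 350, 297 and 270 FPKM in B and 309 to 407 in T libraries. Its difference was -0.20 (95% interval -1.41 to 1.02), and the interval includes the spread of LKS-SLAM and myeloid libraries.

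Signalling genes of the T cell receptor were higher in T cells for 17 of 18 members, with a median of -5.22. Lat, the membrane adaptor, was at 1.71, 1.56 and 1.59 FPKM in B, 640 and 602 in CD4 and 399, 386 and 452 in CD8 libraries. The spread within each group was small beside the difference of -7.59 ± 0.07 (adjusted p = 1.08e-14). The protein kinase C Prkcq differed by -6.47 ± 0.10, Zap70 by -6.24 ± 0.34, and the adaptors Lcp2 and Skap1 by -6.10 ± 0.10 and -6.08 ± 0.19. Some of these genes were also measured well above zero in B cells. Lck was at 19.0, 14.5 and 13.7 FPKM in B libraries, where Cd3e was under 0.4, and at 378 to 423 in T libraries. Fyn was at 20.2 to 20.8 FPKM in B and 131 to 145 in T libraries, and Grap2, an adaptor that binds Lcp2, at 53.9, 67.4 and 60 in B and 151 to 189 in T libraries. Rasgrp1, a Ras exchange factor, did not pass, at 39.4, 57.9 and 55.9 FPKM in B, 97.7 and 107 in CD4 and 59.9, 63.2 and 73.2 in CD8 libraries (-0.69 ± 0.33; adjusted p = 0.120). All its B values lay below its T values, and the spread in its test also came from LKS-SLAM and myeloid libraries. In the cells labelled rEC, described below, Rasgrp1 was called higher in T cells (-0.58; adjusted p = 0.0254 by limma).

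Where both routes meet, the levels were closer and went both ways. Of 14 shared genes 7 were higher in B cells, 3 higher in T cells and 4 did not pass, with a median of 0.39. Over all genes tested 18.4% were higher in B and 22.8% in T cells. Rel, the NF-kB subunit c-Rel, was at 28.0, 47.2 and 45.3 FPKM in B and 11.3 to 12.9 in T libraries (1.62 ± 0.23), and Malt1 (1.26 ± 0.11), Csk (1.14 ± 0.08), Bcl10 (1.04 ± 0.09) and the phosphatase gene Inpp5d (1.02 ± 0.10) were higher in B cells too. Nfatc2 (-1.12 ± 0.14), Pik3cd, the delta subunit of PI 3-kinase (-1.09 ± 0.07), and Ptprc (-0.68 ± 0.13) were higher in T cells. Ptprc is the gene of CD45, of which B220 is a splice form, and stood at 258, 361 and 328 FPKM in B and 484 to 516 in T libraries, so the gene level does not follow the B220 sort. Nfatc1, Nfatc3 and Cblb were among those that did not pass.

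**Figure D2:**
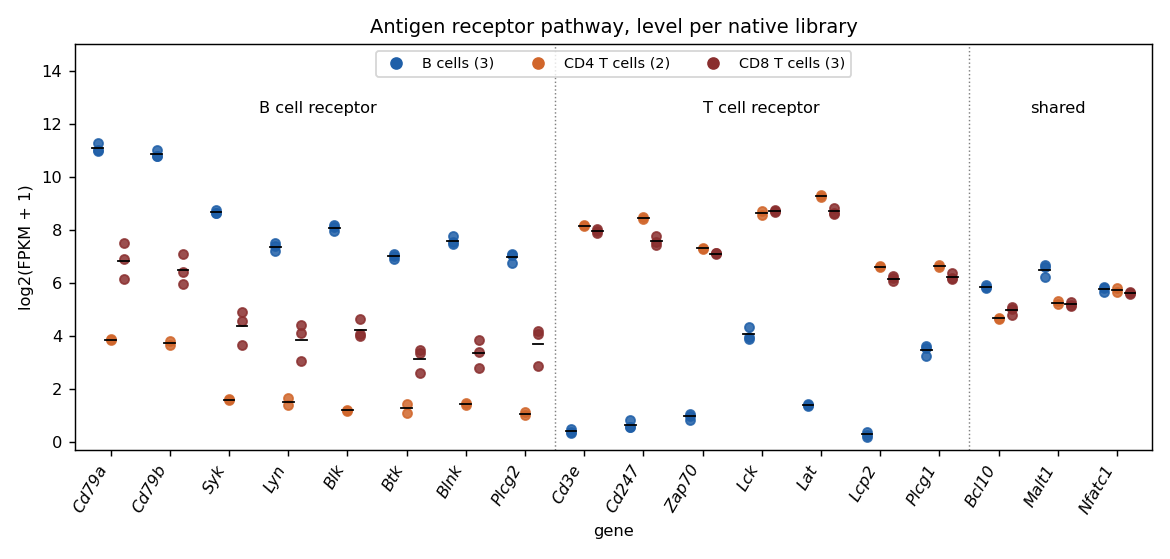
Level of 18 antigen receptor pathway genes in each native library, as log2(FPKM + 1), for 3 B, 2 CD4 and 3 CD8 libraries, with black bars at group means. The 8 genes of the B cell receptor lie highest in B cells and the 7 of the T cell receptor in T cells, while Nfatc1 among the 3 shared genes did not pass the test.

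Genes of B cells were set against T cell genes of a similar role or class, or against their ligand or receptor, within each library, as the log2 ratio of B-type over T-type gene. The pair Tcf4 over Tcf7 shares a symbol stem and not a factor family. In all 21 pairs every B library lay above every T library, and in 15 pairs the B-type gene was the higher of the pair in each B library and the T-type gene in each T library. The pairs were chosen as B over T genes with earlier results of these data known. Their separation therefore follows in part from the choice, and other gene pairs were not counted. Syk over Zap70 was 7.65 to 7.78 in B and -5.73 to -2.20 in T libraries. Lat2 over Lat was 5.62 to 5.92 against -7.63 to -4.45, and Blnk over Lcp2 7.15 to 7.49 against -5.21 to -2.22. Among the phospholipases that follow these kinases, Plcg2 differed between B and T cells by 4.57 ± 0.24 and Plcg1 by -2.97 ± 0.10. The adaptor Lat2, a relative of Lat, differed by 4.43 ± 0.33, and Rasgrp3 and Prkcb, which respond to diacylglycerol, by 4.28 ± 0.18 and 1.80 ± 0.14. Of the genes of contact between the lineages, Icosl and Cd40 on the B cell side differed by 4.34 ± 0.21 and 4.71 ± 0.23, and the T cell receptors for costimulation Icos and Cd28 by -4.83 ± 0.18 and -6.10 ± 0.19. Tcf4, the E protein E2-2, differed by 3.32 ± 0.22, the inhibitory receptor Cd72 by 3.04 ± 0.23 and the surface protein Ly6c1 by -2.71 ± 0.37. Within T cells the CD4 libraries had the lower ratio in most pairs, beside the higher level of B transcripts in the CD8 libraries given above. The 6 pairs that did not cross equality were Spib over Ets1, Icosl over Icos, Cd40 over Cd40lg, Cxcr5 over Ccr7, Nfatc1 over Nfatc2 and Ly6d over Ly6c1. Cd40lg, the ligand by which helper T cells signal to Cd40 on B cells, was at 84.1 and 76.0 FPKM in CD4, 1.57, 1.41 and 1.05 in CD8 and at most 0.0769 in B libraries.

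**Figure D3:**
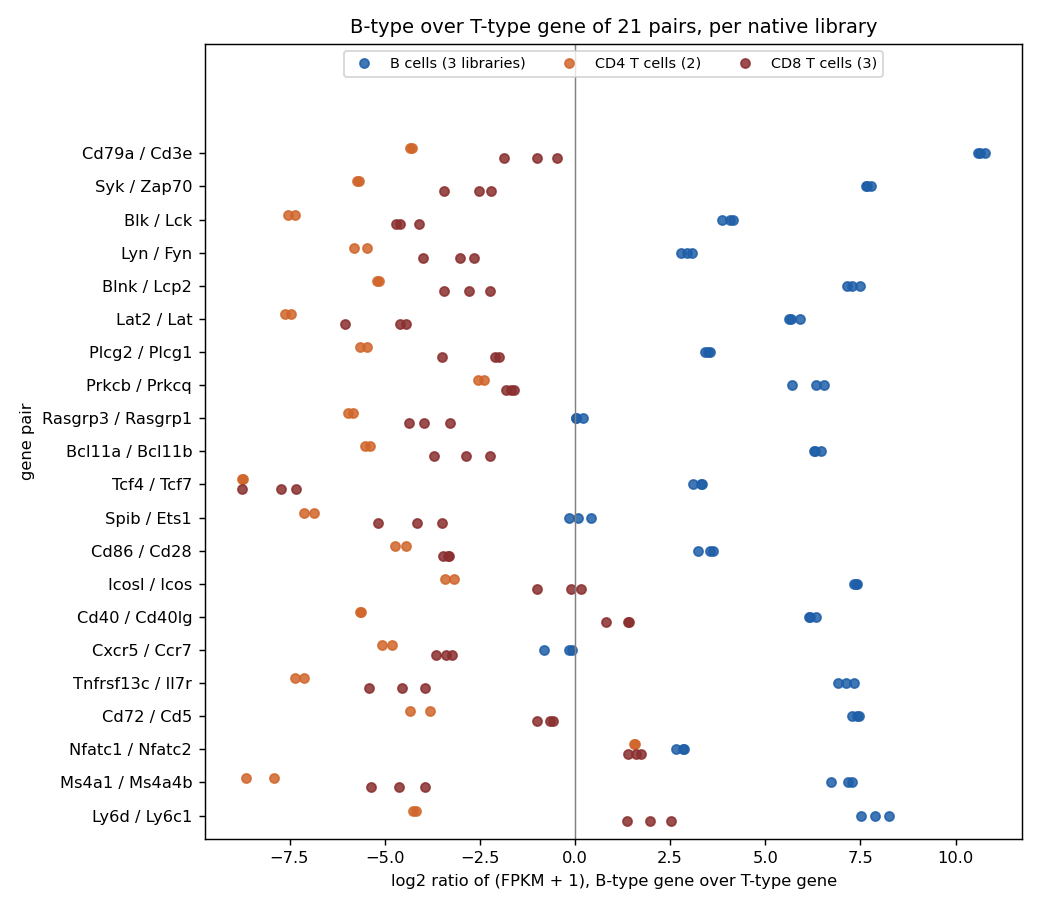
Log2 ratio of (FPKM + 1) of a B-type over a T-type gene in 21 pairs, a point for each of the 8 native libraries. The pairs were chosen with earlier results of these data known. The 3 B libraries lie right of the 5 T libraries in every pair, and in Cd79a over Cd3e they are at 10.6 to 10.8 against -4.34 to -0.48.

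Antigen presentation on class II was higher in B cells for 14 of 15 genes, with a median of 4.48. H2-Aa, the alpha chain of I-A, was at 5118, 4103 and 3494 FPKM in B, 28.3 and 30.2 in CD4 and 365, 300 and 143 in CD8 libraries. All 8 values kept B apart from T cells, with a difference of 5.59 ± 0.32 (adjusted p = 3.41e-08). The invariant chain Cd74 reached 13305, 10597 and 10302 FPKM in B libraries, the highest level of any list member, and differed by 5.56 ± 0.38. H2-DMb2 and H2-DMb1, which encode beta chains of the peptide exchanger, differed by 5.64 ± 0.31 and 5.20 ± 0.27, and H2-Ob, a chain of its inhibitor, by 3.41 ± 0.36, with 53.1 to 80.0 FPKM in T libraries. Ciita, the class II transactivator, was at 80.5, 136 and 108 FPKM in B, 0.702 and 0.943 in CD4 and 11.0, 8.79 and 4.63 in CD8 libraries. Cd80, a co-stimulatory ligand, was low throughout, at 0.956 to 1.62 FPKM in B and 0.533 to 3.66 in T libraries, and did not pass, while its relative Cd86 was higher in B cells (1.35 ± 0.20).

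The 9 class II H2 genes of the list lie close together on chromosome 17 of the mm10 build, from H2-Oa at 34092340 to the end of H2-Eb2 at 34341412. Promoter windows from 250 bases before to 50 bases after the gene start, from RefSeq on GRCm38.p6, were found for 8 of them. CTGATTGG, the Y box of class II promoters, was present in 4 of the 8, on either strand. Their windows are shown because these genes moved together, with the match in capitals: H2-Aa at chr17:34287774-34288073 on the minus strand, H2-Eb1 at chr17:34305617-34305916, H2-Eb2 at chr17:34325425-34325724 and H2-Oa at chr17:34092129-34092428, the last 3 on the plus strand.
H2-Aa: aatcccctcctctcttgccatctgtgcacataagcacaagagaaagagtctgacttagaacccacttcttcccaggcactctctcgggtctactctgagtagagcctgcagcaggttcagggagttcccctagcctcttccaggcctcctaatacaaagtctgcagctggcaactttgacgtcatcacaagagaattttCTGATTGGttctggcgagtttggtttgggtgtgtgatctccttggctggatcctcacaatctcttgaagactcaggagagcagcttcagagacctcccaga
H2-Eb1: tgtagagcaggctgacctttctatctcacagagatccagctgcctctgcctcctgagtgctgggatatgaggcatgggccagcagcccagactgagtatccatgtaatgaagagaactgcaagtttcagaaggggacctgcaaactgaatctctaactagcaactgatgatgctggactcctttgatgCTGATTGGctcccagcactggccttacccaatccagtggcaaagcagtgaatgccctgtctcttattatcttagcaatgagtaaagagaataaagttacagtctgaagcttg
H2-Eb2: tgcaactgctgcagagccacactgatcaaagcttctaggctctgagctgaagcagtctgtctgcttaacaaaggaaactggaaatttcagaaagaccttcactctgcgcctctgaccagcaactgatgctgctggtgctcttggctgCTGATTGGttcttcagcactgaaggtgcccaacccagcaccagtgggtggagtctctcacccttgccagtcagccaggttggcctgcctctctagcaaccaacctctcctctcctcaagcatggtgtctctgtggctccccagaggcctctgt
H2-Oa: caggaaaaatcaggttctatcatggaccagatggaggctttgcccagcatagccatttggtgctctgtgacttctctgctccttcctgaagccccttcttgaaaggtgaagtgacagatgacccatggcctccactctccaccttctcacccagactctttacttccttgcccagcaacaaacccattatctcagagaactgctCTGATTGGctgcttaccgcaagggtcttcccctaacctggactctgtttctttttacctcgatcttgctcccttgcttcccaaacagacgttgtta
The match starts 51 bases before the start of H2-Aa, 62 before H2-Eb1, 103 before H2-Eb2 and 46 before H2-Oa. These letters stood in 5.83% of the windows of all genes tested, so a match is common on its own.

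Other motifs were counted in the promoter windows of genes called against both T cell types in 1 direction. Their difference from T, the mean of the CD4 and CD8 group means, was at least 3 on the log2 scale. Against 1 T cell type it could be smaller, as for Cd72 at 2.22 against CD8 cells. Windows were found for 119 of 163 such genes higher in B and 147 of 210 higher in T cells. The letters TCCC and GGGA with any 2 bases between them, the palindrome bound by the B lineage factor Ebf1, were in 6.72% of the B windows, in none of the T windows and in 1.03% of the windows of all genes tested. The octamer ATGCAAAT, bound by Pou2f2 and its relatives, was in 5.04%, 2.04% and 1.35%, and GAGGAAGT, a site of the PU.1 type, in 9.24%, 6.80% and 3.40%. The motifs were read on both strands and do not contain each other. As examples with high levels in B cells, Cd22 is shown with the Ebf1 motif, at chr7:30878979-30879278 on the minus strand, and Vpreb3 and Blnk with the octamer, at chr10:75948050-75948349 on the plus and chr19:40994172-40994471 on the minus strand, with matches in capitals.
Cd22: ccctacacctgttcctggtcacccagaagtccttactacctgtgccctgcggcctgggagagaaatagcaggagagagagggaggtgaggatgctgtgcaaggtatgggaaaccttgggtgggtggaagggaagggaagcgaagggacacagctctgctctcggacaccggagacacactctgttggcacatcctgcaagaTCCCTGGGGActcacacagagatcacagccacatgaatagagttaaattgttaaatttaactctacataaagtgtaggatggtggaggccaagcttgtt
Vpreb3: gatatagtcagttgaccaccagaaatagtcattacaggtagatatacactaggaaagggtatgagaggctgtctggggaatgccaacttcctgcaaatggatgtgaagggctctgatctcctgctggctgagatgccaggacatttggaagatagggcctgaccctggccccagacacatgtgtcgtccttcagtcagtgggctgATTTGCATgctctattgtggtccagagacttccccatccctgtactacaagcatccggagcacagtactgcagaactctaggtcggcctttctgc
Blnk: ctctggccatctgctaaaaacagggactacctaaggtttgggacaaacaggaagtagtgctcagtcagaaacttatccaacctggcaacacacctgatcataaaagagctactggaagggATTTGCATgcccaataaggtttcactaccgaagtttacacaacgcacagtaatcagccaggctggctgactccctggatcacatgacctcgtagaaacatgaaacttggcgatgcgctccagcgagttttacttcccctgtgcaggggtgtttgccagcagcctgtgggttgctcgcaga
The Ebf1 motif of Cd22 starts 49 bases before the gene start, and the octamers of Vpreb3 and Blnk 45 and 130 bases before it. Mean levels in B, CD4 and CD8 cells were 442, 2.96 and 30.8 FPKM for Cd22, 183, 0.183 and 9.30 for Vpreb3 and 192, 1.70 and 9.55 for Blnk.

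All 16 factors of the B cell list were higher in B cells, with a median of 4.43. Pax5, which holds B cell identity, was at 334, 274 and 287 FPKM in B, 1.55 and 1.52 in CD4 and 23.8, 19.3 and 12.9 in CD8 libraries. The groups did not overlap, and the difference was 5.42 ± 0.65 (adjusted p = 2.48e-05). Spib, an Ets factor close to PU.1, differed by 5.48 ± 0.51, the homeobox factor Hhex by 4.88 ± 0.24, Bcl11a by 4.83 ± 0.20, and Pou2af1, the co-activator of octamer factors, by 4.63 ± 0.46. Ebf1 was at 40.4, 72.1 and 66.1 FPKM in B and at most 5.37 in T libraries. The smallest differences were in factors that T cells also carried, Tcf3 (1.33 ± 0.10; 38.7 to 60.8 FPKM in T libraries), Ikzf3 (1.34 ± 0.30; 55.5 to 83.8) and Bach2 (1.40 ± 0.20; 14.8 to 22.3).

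Of the 16 factors of the T cell list 13 were higher in T cells, with a median of -2.76. Bcl11b, which holds T cell identity, was at 0.234, 0.106 and 0.0671 FPKM in B, 67.9 and 75.2 in CD4 and 42.4, 46.9 and 54.9 in CD8 libraries, a difference of -5.71 ± 0.20 (adjusted p = 4.73e-10). Lef1, a partner of Tcf7, differed by -5.64 ± 0.28, Id2, an inhibitor of E proteins, by -5.11 ± 0.14 and Gata3 by -4.75 ± 0.17. Id3, the other E protein inhibitor of the list, went against it, at 103, 99.2 and 107 FPKM in B and 8.29 to 15 in T libraries (3.12 ± 0.18; adjusted p = 2.76e-08). Id2 and Id3 were thus split between the lineages, Id2 being at 3.5, 2.33 and 3.12 FPKM in B and 106 to 168 in T libraries. Ets1, at 262 to 388 FPKM in B and 318 to 448 in T libraries, and Zbtb7b did not pass. Zbtb7b, the factor ThPOK of helper T cells, was at 57.7 and 52.3 FPKM in CD4, 23.5, 26.8 and 29.2 in B and 10.0, 10.4 and 5.98 in CD8 libraries, so that B cells lay between the T cell types.

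Of 12 genes of class I presentation 6 were higher in T cells, against 22.8% of all genes tested, 1 was higher in B cells and 5 did not pass, with a median of -0.45. Nlrc5, the transactivator of class I genes and the counterpart of Ciita, was at 19.0, 27.3 and 22.2 FPKM in B and 81.9 to 96.9 in T libraries (-1.94 ± 0.16; adjusted p = 8.79e-07). H2-K1, a class I heavy chain, differed by -0.73 ± 0.13 and B2m, the light chain, by -0.67 ± 0.16. Calr, a chaperone of the endoplasmic reticulum, was the exception in the direction of B cells (0.34 ± 0.08).

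Survival and cytokine receptors divided by lineage, with 14 of 20 higher in T and 5 higher in B cells and a median of -1.60. Tnfrsf13c, the BAFF receptor that keeps mature B cells alive, was at 178, 202 and 239 FPKM in B, 1.33 and 1.42 in CD4 and 20.1, 12.3 and 8.26 in CD8 libraries (5.17 ± 0.28). Tnfrsf13b, a second receptor for BAFF, differed by 2.41 ± 0.19. On the T cell side, Il7r was followed by Il2rb, a chain of the IL-2 and IL-15 receptors, at 1.92, 2.31 and 3.71 FPKM in B, 115 and 103 in CD4 and 340, 258 and 225 in CD8 libraries (-5.60 ± 0.46), by the co-stimulatory receptor Cd27 (-5.28 ± 0.24) and by Il6st (-3.25 ± 0.17). Il10ra (1.81 ± 0.25), Il4ra (0.45 ± 0.09) and Il21r (0.28 ± 0.10; adjusted p = 0.0343) were higher in B cells, and Il21r lost its call in 11 of 20 other settings. Tnfrsf17, the plasma cell receptor BCMA, did not pass and was at most 0.0706 FPKM in B libraries.

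Homing receptors were mostly T-weighted, with 16 of 23 higher in T cells, 3 higher in B cells and a median of -1.66. The 3 were Cxcr5, the receptor for entry into B cell follicles, at 255, 302 and 263 FPKM in B and 15.5 to 38.5 in T libraries (3.42 ± 0.20), Ccr6 (2.71 ± 0.15) and Cxcr4 (1.38 ± 0.22). Receptors for inflamed tissue were higher in T cells, among them Cxcr6 (-4.54 ± 0.28), Cxcr3 (-4.47 ± 0.39) and Ccr2 (-3.86 ± 0.29). Integrins went the same way, with Itgae at -4.10 ± 0.17 and Itgb1 at -3.75 ± 0.19, the latter at 6.49, 10.3 and 11.5 FPKM in B, 242 and 212 in CD4 and 105, 83.4 and 61.7 in CD8 libraries. Ccr7, by which both lineages enter lymph nodes, did not pass. It was at 447, 335 and 279 FPKM in B and 369 to 553 in T libraries (95% interval of the difference -1.38 to 0.56). This interval, too, includes the spread of LKS-SLAM and myeloid libraries.

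Toll-like receptors and their partners were higher in B cells for 8 of the 11 members tested and higher in T cells for none, with a median of 1.15. Tlr9, the sensor of unmethylated DNA, was at 21.6, 41.1 and 41.5 FPKM in B and at most 3.35 in T libraries (4.12 ± 0.25). Its transport partner Unc93b1 was at 500, 423 and 422 FPKM in B cells (4.33 ± 0.22). Cd180 and Ly86, which form the receptor complex RP105 with MD-1, differed by 4.26 ± 0.29 and 4.81 ± 0.29. Tlr4 (1.99 ± 0.19) and Tlr7 (1.15 ± 0.33) had low levels in B cells, of 4.01 to 6.01 and 7.67 to 9.42 FPKM. Myd88, the shared adaptor, was at 23.4 to 28.4 FPKM in B and 27.4 to 38.2 in T libraries and did not pass.

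Cytotoxic genes were higher in T cells for all 15 members, with a median of -3.79, and 12 of them passed against both CD4 and CD8 cells. Ccl5, a chemokine of memory and effector cells, was at 13.8, 9.33 and 15.4 FPKM in B, 575 and 268 in CD4 and 3682, 2189 and 2160.0 in CD8 libraries (-6.22 ± 0.74; adjusted p = 2.33e-05). The CD8 libraries were the highest throughout the list, except that Gzmk and Ifng overlapped CD4. Ctsw (-5.66 ± 0.14), Nkg7 (-5.58 ± 0.20), Cst7 (-5.18 ± 0.27) and the granzyme genes Gzmk (-4.86 ± 0.40) and Gzmb (-4.35 ± 0.31) followed. Natural killer markers, with which this list shares genes, were higher in the CD8 libraries as given above, and their part in these differences was not tested.

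Genes of B cell precursors were mostly low or listed at 0 in B cells. Among 12 genes of B cell precursors and recombination, Vpreb2 and Igll1 of the surrogate light chain were listed at 0 in all 8 libraries, Rag2 was at most 0.124 FPKM, and 5 of 9 tested were higher in B cells. Cd24a (5.32 ± 0.24), Vpreb3 and Cecr2 (2.55 ± 0.20) led, and Rag1 was at 0.374, 1.72 and 1.17 FPKM in B and at most 0.0123 in T libraries (1.0 ± 0.35; adjusted p = 0.0382, lost in 8 of 19 other settings). Of 14 genes of mature B subsets 10 were higher in B cells. Fcer2a, the IgE receptor CD23 of follicular B cells, was at 445, 524 and 478 FPKM in B and at most 35.0 in T libraries (5.51 ± 0.30), and Cd38 (3.54 ± 0.27) and Plac8 (3.20 ± 0.28) were higher in B cells as well. Cd9 (-2.59 ± 0.18) and Spn, the sialophorin CD43 (-4.90 ± 0.20), used to mark B cell subsets, were higher in T cells.

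Antibody-secreting and germinal-centre genes were mixed, with 6 of 10 higher in B and 3 higher in T cells. Mzb1, a chaperone of immunoglobulin assembly, differed by 4.19 ± 0.34 and Bcl6, a repressor of the germinal centre, by 2.50 ± 0.21. Jchain, which joins secreted IgM and IgA, was higher in the T libraries, at 10.2 and 45.2 FPKM in CD4, 15.6, 22.6 and 7.68 in CD8 and 3.24, 2.44 and 5.03 in B libraries (-2.05 ± 0.55; adjusted p = 0.00981). Prdm1, the plasma cell factor Blimp-1 that effector T cells also use, was at 2.08 to 5.51 FPKM in T and at most 0.709 in B libraries (-1.60 ± 0.26), and the migration receptor S1pr2 also passed in the direction of T cells (-1.60 ± 0.22).

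Of the 8 GTPases of the Gimap cluster on chromosome 6, 3 passed, against 41.2% of all genes tested. Gimap4 (-1.14 ± 0.34) and Gimap3 (-1.04 ± 0.25) were higher in T cells and Gimap1 (0.54 ± 0.12) in B cells. In the Bcl2 family the survival genes differed in kind, with Bcl2 at 20.8, 22.1 and 23.8 FPKM in B and 51.1 to 82.9 in T libraries (-1.57 ± 0.12), Bcl2l1 higher in T cells (-1.90 ± 0.16) and Mcl1 higher in B cells (0.78 ± 0.09). Among the death-promoting members Bbc3 was higher in T cells (-2.38 ± 0.21) and Bmf in B cells (2.39 ± 0.21). Of the 12 members 4 were higher in B, 3 higher in T cells and 5 did not pass. The shares over all genes tested were 18.4% higher in B and 22.8% higher in T cells.

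Cell cycle genes were higher in T cells for 10 of 18 and in B cells for none, at low levels. Against CD4 and CD8 cells apart 5 of the 18 passed in both, beside 14.3% of all genes tested. Among all genes tested 22.8% were higher in T and 18.4% in B cells. Mki67, a marker of dividing cells, was at 0.120, 0.391 and 0.393 FPKM in B, 6.63 and 5.25 in CD4 and 1.97, 1.40 and 1.83 in CD8 libraries (-1.74 ± 0.15). Both T cell types lay above the B libraries, and CD4 above CD8. Of 20 interferon-stimulated genes 11 were higher in T cells, led by Oas3 (-2.13 ± 0.23), Ifit1 (-1.90 ± 0.23) and Ifit2 (-1.70 ± 0.17). In B cells 2 were higher, Oasl1 (1.75 ± 0.25) and Stat2 (1.14 ± 0.10). Against both T cell types 7 passed as higher in T and 2 as higher in B cells.

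The immediate early genes varied between the B libraries. Fos, a factor induced within minutes of stimulation or handling, was at 210 FPKM in B replicate 1 and at 21.8 and 22.5 in the other two, against 90.7 to 271 in T libraries. Of 20 such genes 4 were higher in B, 5 higher in T cells and 11 did not pass. These counts lie near the shares of all genes tested, 18.4% higher in B and 22.8% higher in T cells. Without B replicate 1, Fos (-2.51; adjusted p = 8.97e-05), Junb (-1.5) and Fosb (-2.44) were called higher in T cells, and Jund lost its call in the direction of B cells. Egr3, a target of antigen receptor signals, was at 7.57, 13.9 and 12.5 FPKM in B and 0.398 to 1.68 in T libraries (2.65 ± 0.38). The inducible heat shock gene Hspa1b, picked after its values were seen, was at 0.946, 0.383 and 3.58 FPKM in B libraries. In T libraries it was at 20.7 to 201, highest in CD8 replicate 1 (-4.25 ± 0.62). In the rEC libraries, described below, it was at 0.32 to 0.56 FPKM in B and 0.22 to 1.92 in T cells. Among the other heat shock genes looked at, Hspa1a was higher in native T cells (-3.66 ± 0.64). Hsph1 was called higher in native B cells (1.07 ± 0.38; adjusted p = 0.0411 by limma). The constitutive Hspa8 was at 562 to 1150 FPKM in B and 547 to 1193 in T libraries (0.02 ± 0.22).

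**Figure D4:**
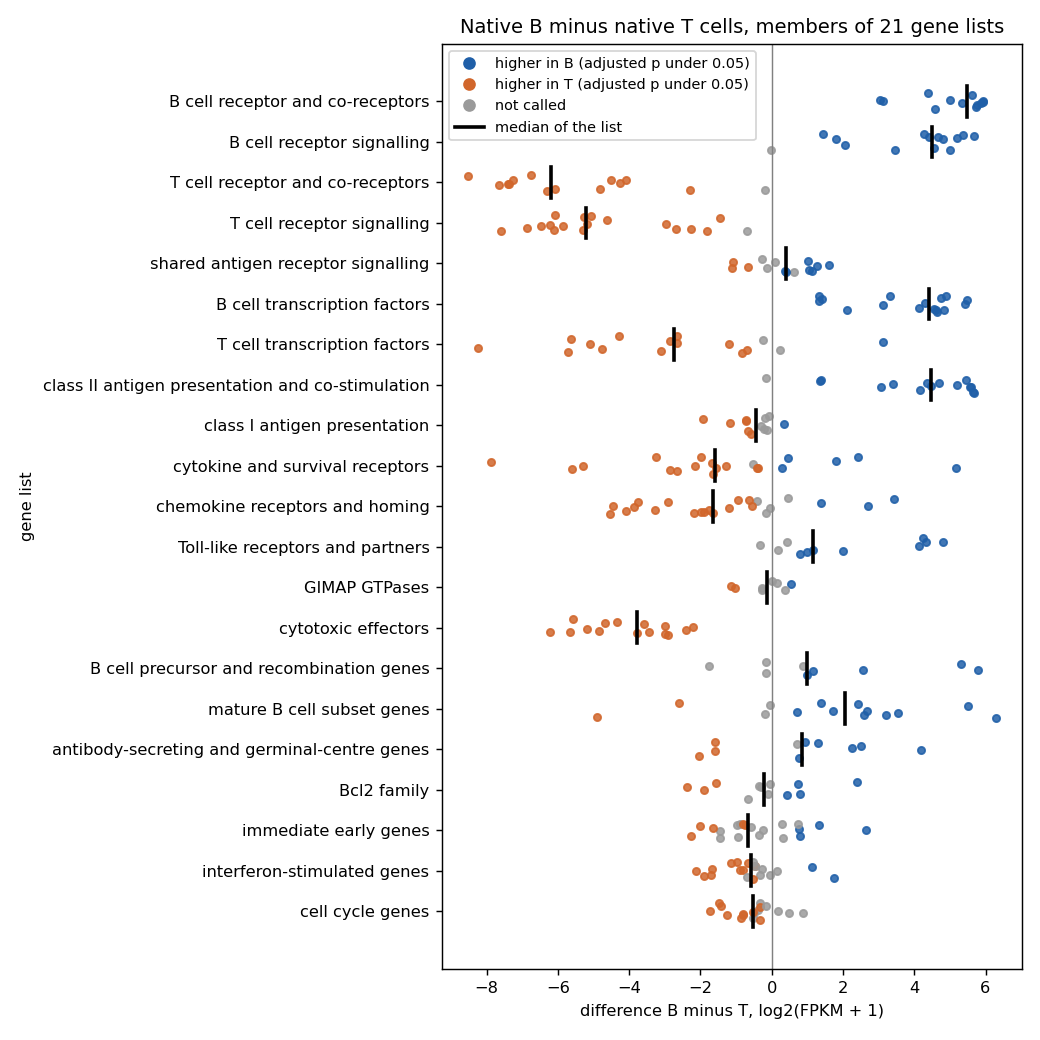
Difference B minus T on the log2(FPKM + 1) scale for the tested members of 21 gene lists. Each point is a gene, coloured by its call, and black bars are list medians, from -6.20 for T cell receptor chains to 5.48 for the B cell receptor, beside -0.03 over all genes tested.

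The T cell types were not equally far from B cells for every gene. Of the genes tested 1179 differed from CD4 cells alone, 1659 from CD8 cells alone and 41 from both in opposite directions, Zbtb7b among them. The counts do not show that a difference is particular to a T cell type. Foxp3, the factor of regulatory T cells, was at 36.6 and 41.9 FPKM in CD4, at most 0.477 in CD8 and at most 0.240 in B libraries. Ctla4, an inhibitory receptor, was at 119 and 98.0 FPKM in CD4, 7.87, 5.51 and 10.3 in CD8 and 0.978, 0.579 and 0.338 in B libraries. Eomes, a factor of memory CD8 cells and natural killer cells, was at 37.7, 27.1 and 30.9 FPKM in CD8, 4.19 and 2.47 in CD4 and at most 0.895 in B libraries.

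The same contrast was measured in B and T cells labelled rEC, which are annotated as derived and here read as descended from converted endothelium, with 3 B, 2 CD4 and 3 CD8 libraries that share no sample with the native ones. B replicate 2 is titled 47G1 and primary, B replicate 3, CD4 replicate 2 and CD8 replicates 2 and 3 are titled secondary, and the other 3 titles name neither. They were used as replicates, so a difference between these origins adds to the spread. Of 13361 genes tested, 1214 (9.09%) differed, 741 (5.55%) higher in B and 473 (3.54%) higher in T cells, and after rescaling libraries to the same sum the split was 579 and 626. The rEC B replicate 1 went against its label in part, with T markers at a median of 62.5% of the native T level and B markers at 28.6% of the native B level. Without it 2336 genes (17.5%) differed, 1142 higher in B and 1194 in T cells, and leaving out any 1 of the other 7 libraries gave 299 to 737. Of the 5599 genes called in native cells 5515 were then tested, 5394 (97.8%) had the same sign, and 2204 were called in the same direction, 40.0% of the native and 94.3% of the rEC calls. Called in the opposite direction was 1 gene, the linker histone gene Hist1h1c, at -0.72 in native and 2.32 in rEC cells. With all libraries 1178 were called in the same direction, 21.3% of the native and 97.0% of the rEC calls, and none in the opposite one. Xist, at 57.3 to 74.2 FPKM in rEC B and 28.8 to 95.3 in rEC T libraries, did not pass there. Ddx3y was at 33.8 FPKM in rEC CD8 replicate 2 and at most 0.0584 in the other 7 rEC B and T libraries.

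**Figure D5:**
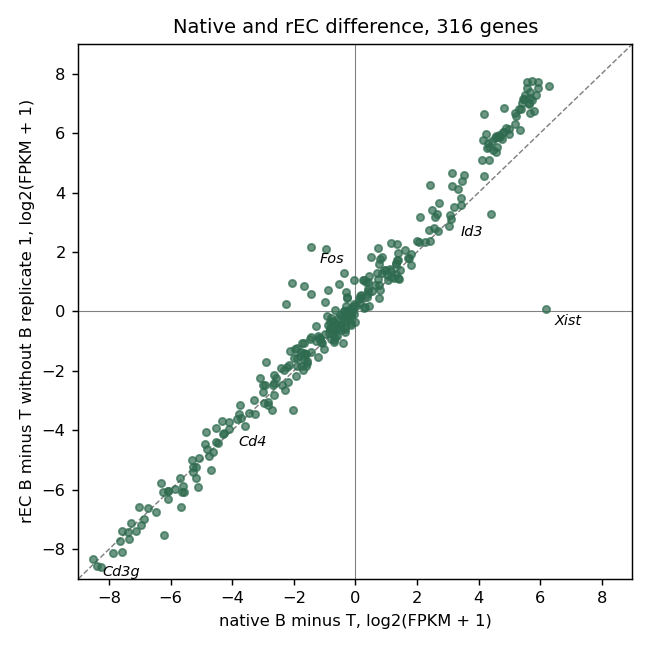
Difference B minus T in native cells (x axis) and in rEC cells without B replicate 1 (y axis), on the log2(FPKM + 1) scale, for 316 genes named or held in a list or pair. The dashed line marks equal differences. Most genes lie near it, those highest in native B cells lie above it, and Xist lies apart, at 6.19 in native and near 0 in rEC cells.

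In the rEC T libraries the B markers stood at a median of 0.0454% to 0.945% of the native B level, below the native CD8 libraries and on both sides of the native CD4 libraries. The difference between native and rEC cells in the contrast was tested by itself over 13962 genes. It passed for 1 gene (0.00716%), Themis2, an adaptor of B cells and myeloid cells related to the T cell protein Themis. Its call was lost without rEC B replicate 1 (adjusted p = 0.130 by limma) and in 12 of the other 15 settings that left out 1 library, at adjusted p of 0.0519 to 0.297, and its difference stayed between 2.15 and 2.67. Of the 20 immediate early genes 9, Fos and Nr4a1 among them, were lower in B than in T cells by their fitted difference in native cells and higher in rEC cells without B replicate 1. None of the 20 passed the test of the difference between native and rEC cells.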

How the data were processed

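RNA was measured by poly-A selected, non-stranded sequencing of libraries from sorted mouse cells, 51 bp paired ends, per the labels' protocols. The authors deposited 1 FPKM value per gene symbol and library, 23060 symbols in all. Per the submitters' processing notes the tools were Cufflinks 2.2.1, TopHat2 2.1.0, Trimmomatic 0.36, bcl2fastq 2.17 and FastQC 0.11.5 with the mm10 build, and their settings are not given in the sources used here. FPKM carry no counts, so no counting interval or floor is given. Among the native B and T libraries the depth relative to B replicate 2, read from the steps of low values, was 0.829 to 1.02.

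Libraries were grouped by title. limma 3.58.1 in R 4.3.3, with an intensity trend and moderated variances, was fitted to log2(FPKM + 1) over the 13 native libraries of 5 cell types, 1 mean per group, with 8 residual degrees of freedom, so LKS-SLAM and myeloid libraries add to the spread. A gene was tested when 2 or more of these libraries reached 1 FPKM. Tests were two-sided, with Benjamini-Hochberg adjustment over all genes tested, and called at 0.05. The rEC contrast used the 13 rEC libraries alone, and the difference of the contrasts used all 26, with 16 residual degrees of freedom. The fit was checked on simulated data with independent noise of its own fitted spread. That check does not cover B cell transcripts in the CD8 libraries, donor sex or a spread that differs between cell types.

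The members, the 26 gene lists (358 of 360 memberships in the table) and the 21 pairs were chosen with earlier results of these data known. Named are up to 15 genes per direction that passed against CD4 and CD8 cells with no overlap of B and T libraries and whose mean reached 5 FPKM in the higher kind, and up to 6 members per list, those with the largest difference or passing against its side. Further list members, the sex-linked and heat shock genes, the motifs and the subtraction of B transcripts were picked after the values were seen. Some genes that these lists, markers and rules hold are not reported here. Gene positions come from the GENCODE annotation of mm10 by symbol. Python 3.11.15 with numpy 2.4.6, pandas 2.3.3 and matplotlib 3.10.9 was used for tables and plots.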

Additional observations from a re-analysis of the deposited data

Results flagged for a closer look

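Themis2 was the gene whose B minus T difference differed between native and rEC cells by the test of that difference itself, by 2.41 ± 0.37 on the log2(FPKM + 1) scale (SE; limma over 26 libraries, adjusted p = 0.0444). In native cells it was at 74.3, 100.5 and 89.4 FPKM in B, 3.02 and 3.30 in CD4 and 15.5, 18.4 and 16.8 in CD8 libraries. In rEC cells it was at 57.9, 95.7 and 101.4 FPKM in B, 40.6 and 19.1 in CD4 and 75.7, 37.9 and 89.5 in CD8 libraries. The native groups did not overlap, and 2 of the 5 rEC T libraries lay above rEC B replicate 1, the library that holds T cell transcripts, while none reached the other rEC B libraries. With 1 of the 16 B and T libraries left out, the adjusted p of Themis2 was 0.0028 to 0.297 and passed in 3 of 16 cases.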

How the results depend on the processing

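The native contrast had 3849 to 7514 calls under the alternatives run, against 5599, and 4808 to 5499 with any library of the contrast left out. Calls against both T cell types went from 3582 to 2187 in a fit over all 29 grouped libraries, for which the cause was not tested, and lay between 3007 and 3654 with a library left out. The deviations of same-numbered libraries correlated at r from -0.025 to 0.188, over 0.1 in 3 of 7 pairs and not in every pair, and with a replicate block there were 5538 and 3514 calls. The split between B and T cells was 2877 and 2756 after quantile normalisation. With B transcripts subtracted from the T libraries, an alternative chosen after seeing the data, there were 5752 and 3613 calls. Of the 320 list, pair and named genes, 254 were called. None of these reversed in the 20 settings run and 49 lost their call in 1 or more, none of them among the 30 genes with the largest differences. The 29-library fit lost 40 of these calls, mostly of small differences such as Ifit3 and Il21r. The fit over the 8 native B and T libraries alone, with 313 of the 320 genes tested, gained 20 calls and lost 2. Array quality weights gained 32 and lost 1, so whether some genes did not pass depended on the fit.

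The rEC contrast was less stable. Array quality weights gave 6433 calls against 1214, and leaving out 1 library gave 299 to 2336, the count rising without B replicate 1 and falling below 1214 without any of the other 7 libraries, by over 1.5 times in each case. For the difference between native and rEC cells the 1 call became 7 without a filter, 98 with array weights and 0 after quantile normalisation, rescaled sums or without the trend, and 0 to 3 with a library left out. In the limma fits with 0 calls, 271 to 641 genes had an unadjusted p under 0.05, and 403 did in the fit with 1 call. The causes were not tested. Depth limits the low genes, since FPKM near 0 carry few fragments.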
